A study of Mus musculus with 6 samples.

Results

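The genes described here belong to the integrated stress response, the pathway that ends in the transcription factor ATF4, together with its neighbour, the unfolded protein response of the endoplasmic reticulum (ER). They were chosen by symbol: 35 genes of the ATF4 and CHOP axis, the eIF2 kinases, serine and one-carbon synthesis, and ER stress mediators other than chaperones. All 35 were found among the 46983 features of the deposited table, and 34 had enough reads to be tested. The study compared oligodendrocytes, the glia that wrap axons in myelin, taken directly from the brains of FvB/C57BL6 hybrid mice. Of the 6 libraries, 3 came from mice labelled WT and 3 from Qk-KO mice (labelled Qk-/-) that carry a floxed Qk gene and a tamoxifen-inducible Cre recombinase under the Plp promoter. Mice of both groups received tamoxifen at 8 weeks of age, and their brains were taken 4 days later. Qk encodes quaking, an RNA-binding protein of myelin-forming cells. The Cre acts only in cells that use the Plp promoter, so other cells in the preparation keep their Qk alleles. Whether the WT mice carry the floxed allele or the Cre is not in the labels. Nor is it stated whether the libraries are of different mice, and the p-values therefore reflect only how these libraries vary.

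The kinases PERK, GCN2, PKR and HRI sense ER stress, amino acid shortage, double-stranded RNA and haem shortage or mitochondrial stress, and phosphorylate the translation factor eIF2. Phosphorylated eIF2 lowers protein synthesis in general and raises translation of a few mRNAs, ATF4 above all. ATF4 then pairs with other bZIP factors and turns on genes for amino acid synthesis, amino acid uptake, redox balance and, when stress persists, the CHOP programme. Other ER sensors, IRE1 and ATF6, act in parallel through XBP1 and through cleaved ATF6. Oligodendrocytes make large amounts of membrane protein and lipid, and disorders of the eIF2B complex, on which phosphorylated eIF2 acts, are known for their damage to white matter. The data are RNA levels; they do not measure eIF2 phosphorylation, ATF4 protein, ATF6 cleavage or Xbp1 splicing.

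Sites of the kind that ATF4 and the ER factors are known to bind were read from the RefSeq promoter windows (build GRCm38.p6, 250 bases before to 50 after each start), which held 32 of the 35 genes. The motif TGATGNAA, the core of the C/EBP-ATF response element (CARE), was found on either strand for 8 of these 32 genes, against 4.51% of the 27025 genes with a window. The members were chosen as genes of this pathway, so that share is a description. The 7 matches that lie upstream of the start are shown 5′ to 3′ on the strand of the gene, with the match in capitals, because they include the gene with the largest rise, Asns, and several genes that did not pass the test.
Asns (chr6:7693214-7693243, minus strand): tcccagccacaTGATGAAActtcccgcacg
Vldlr (chr19:27216809-27216838, plus strand, window of a second start): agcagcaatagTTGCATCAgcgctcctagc
Atf3 (chr1:191183425-191183454, minus strand): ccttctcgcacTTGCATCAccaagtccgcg
Chac1 (chr2:119351038-119351067, plus strand): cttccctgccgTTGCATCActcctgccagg
Herpud1 (chr8:94386306-94386335, plus strand): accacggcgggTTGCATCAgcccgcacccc
Nupr1 (chr7:126625562-126625591, minus strand): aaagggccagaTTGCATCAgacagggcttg
Pycr1 (chr11:120643833-120643862, minus strand): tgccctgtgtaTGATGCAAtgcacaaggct
The remaining match, in Trib3, lies after the start and is not shown. Of the genes that rose between the genotypes, as given below, 2 of the 11 with a window held this motif, and of the other members 6 of 21. A match is only a run of letters, and its absence says only that these letters are not in the window.

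The motifs of the ER stress factors were rarer. The ER stress element (ERSE) was found, on either strand, for 1 member, Creld2, and for 0.137% of all genes with a window, and its short form ERSE-II for Herpud1 and for 0.0444% of all genes. They are shown because both genes are ER stress targets that did not pass the test.
Creld2 (chr15:88819509-88819549, plus strand): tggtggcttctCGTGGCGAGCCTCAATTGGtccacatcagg
Herpud1 (chr8:94386366-94386398, plus strand): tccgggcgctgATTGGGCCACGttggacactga
The XBP1 motif TGACGTGG was found in no member and in 0.714% of all genes. The cyclic AMP response element TGACGTCA was found for Ppp1r15a alone, 12 bases upstream of its start, and for 2.03% of all genes.

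The values are regularized log2 values, which are scaled for depth and in which genes with few reads are drawn closer to their average. Approximate totals estimated from the table, in units of 1000000 reads, were 23.6 to 32.5 for WT replicates and Qk-KO replicate 1, but 78.9 and 71.4 for Qk-KO replicates 2 and 3. Ribosomal RNA features held 59.8% to 64.8% of the signal in the former 4 libraries and 2.23% and 1.88% in the latter 2. Outside these features the same totals were 8.7 to 10 in WT, against 13.1, 77.1 and 70 in Qk-KO replicates 1, 2 and 3. Since only Qk-KO samples were of this second kind, library type and genotype cannot be told apart in them. The rises are therefore also given for Qk-KO replicate 1 alone against WT, a fit that gives the single Qk-KO sample the same spread as WT. Qk itself, counted over the whole gene, did not pass the test (change 0.21 ± 0.25, adjusted p = 0.567, log2 values of 15.41, 15.67 and 15.31 in WT against 16.10, 15.62 and 15.30 in Qk-KO). Its groups overlapped, with Qk-KO replicate 1 the highest library. The table gives whole genes and the labels do not say which exons are floxed, so the deletion was not checked here and the groups are named as labelled. The 10 oligodendrocyte markers were all detected and summed to 25738 to 31561 per 1000000 of non-ribosomal signal in WT and 32679 to 41700 in Qk-KO; 6 of them rose (median change 0.81), 4 in Qk-KO replicate 1 alone, and 2 if WT replicate 1, WT replicate 3 or the second Qk-KO library was left out. The part of this shift, and of the fall of astrocyte markers given at the end, in the changes of the pathway was not tested.

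Of the 34 tested members 12 rose and 0 fell at an adjusted p under 0.05 (limma), and the largest rise was that of Asns, 3.27-fold. The background was 13.8% of 15153 genes called higher and 14.8% called lower, against 35.3% and 0% of the members. No member fell at an unadjusted p under 0.05 in limma or at an adjusted p under 0.05 in the authors' deposited table, so both counts of falls were 0. The median change of the tested members was 0.35 on the log2 scale, against 0.03 for all genes tested. In 14 of the 34 members every Qk-KO library was above every WT library, and in 0 every Qk-KO library was below; among all genes tested these shares were 24.5% and 21.8%. The authors' deposited table calls these 12 as well; there 13 of 35 members were higher (background 13.7%).

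The calls rested on the libraries with a low ribosomal signal to different degrees. Set against WT on its own, Qk-KO replicate 1 had 3 members that rose, Asns, Psat1 and Vldlr, and 0 fell, with a background of 6.17% and 9.37% and a median change of 0.17. With library type in the model the same 3 genes rose, or 8.82% of the members, which is near the background of 5.76%. The median change was then 0.17 for the members and 0.02 for all genes. In that fit the library type term takes up Qk-KO replicates 2 and 3, so its changes are those of Qk-KO replicate 1 against WT. It is not a second result. The changes of all 12 genes were above 0 in that fit and under each of the 17 alternatives tried. Leaving out WT replicate 1 gave 6 rises among the members (17.6%, background 7.22%). Leaving out Qk-KO replicate 2 gave 5 (14.7%, background 6.13%), and 14 passed when Qk-KO replicate 1 was left out (41.2%, background 18.7%). The sample numbers in the labels fall into 2 series, and all 12 changes were above 0 within each of them. As the groups of these 12 genes did not overlap, no series and no fit on fewer libraries could have given a change below 0.

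**Figure D1:**
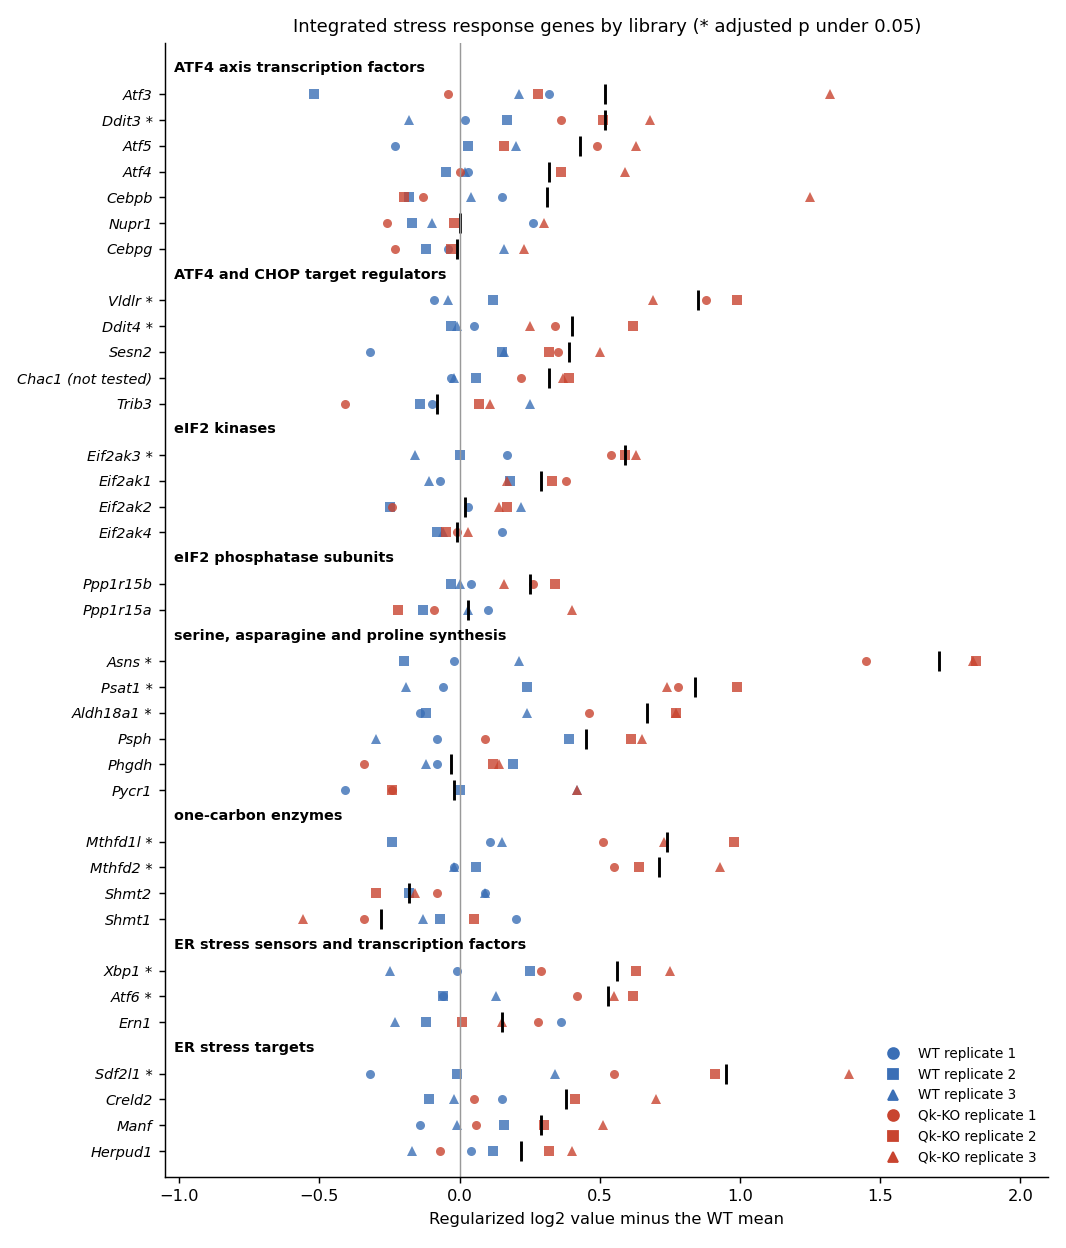
Distance of each regularized log2 value from the mean of WT (x axis) for each of the 35 genes, ordered by role, with points for single libraries (blue for WT, red for Qk-KO, a symbol for each replicate) and a black line at the Qk-KO mean. Asns lies farthest to the right, at 1.71 from the WT mean, and in the 12 genes marked with an asterisk no red point reaches the blue ones.

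Enzymes that make amino acids held the largest change. Asns (chr6:7675169-7693254, minus strand, GRCm38), asparagine synthetase, which turns aspartate into asparagine and is a textbook ATF4 target, had log2 values of 6.55, 6.37 and 6.78 in WT replicates 1, 2 and 3, against 8.02, 8.41 and 8.40 in Qk-KO replicates 1, 2 and 3. The groups lay more than 1 log2 unit apart, and Qk-KO replicate 1 was the lowest of the Qk-KO libraries. Asns rose by 1.71 ± 0.18 (SE, n = 3 per group; adjusted p = 0.000525 by limma). About 40 to 49 reads in each WT library lay behind these values, against 160, 1413 and 1277 in Qk-KO. At such low counts the regularized values understate differences, and the authors' deposited table gives 2.51 ± 0.31. For Qk-KO replicate 1 alone the change was 1.45. Asns passed under all 17 alternatives, with changes from 1.45 to 2.77 and adjusted p from 1.81e-14 to 0.00989. The upper end, as for the other genes, is the value scaled by library size alone, which shifts the median of all genes by 1.06.

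Of the 3 enzymes of serine synthesis Psat1 passed the test. They turn the glycolytic intermediate 3-phosphoglycerate into serine in the order Phgdh, Psat1, Psph. Psat1 (chr19:15904678-15947337, minus strand), phosphoserine aminotransferase, had values of 13.05, 13.35 and 12.92 in WT against 13.89, 14.10 and 13.85 in Qk-KO. All Qk-KO libraries were above all WT libraries, and the change was 0.84 ± 0.16 (SE, adjusted p = 0.00636), or 1.79-fold. It passed under every alternative, with changes from 0.75 to 1.90 and an adjusted p of at most 0.0445, and changed by 0.78 in Qk-KO replicate 1 alone. Phgdh, phosphoglycerate dehydrogenase, which commits carbon to the pathway and is known for high expression in astrocytes, was 11.91, 12.18 and 11.87 in WT against 11.65, 12.11 and 12.13 in Qk-KO. Its groups overlapped, and the change was -0.02 ± 0.16 (adjusted p = 0.936). Psph, phosphoserine phosphatase, was 8.38, 8.85 and 8.16 in WT against 8.55, 9.07 and 9.11 in Qk-KO, with overlapping groups and a change of 0.44 ± 0.22 (adjusted p = 0.167).

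In proline synthesis Aldh18a1 passed and Pycr1 did not. Aldh18a1, which makes the first intermediate of proline from glutamate, had values of 7.51, 7.53 and 7.89 in WT against 8.11, 8.42 and 8.42 in Qk-KO. The groups did not overlap, and the gene rose by 0.67 ± 0.17 (adjusted p = 0.0204). With Qk-KO replicate 1 alone its change was 0.46 (adjusted p = 0.249), and the call was also lost when WT replicate 1 or 2 (0.0756 and 0.0655) or Qk-KO replicate 2 (0.0861) was left out; over all alternatives it ran from 0.00381 to 0.249. Pycr1, the mitochondrial enzyme of the last step, had only about 8 to 12 reads in each WT library. Its values of 3.94, 4.35 and 4.77 in WT against 4.11, 4.11 and 4.77 in Qk-KO overlapped, and the change was -0.02 ± 0.26 (adjusted p = 0.963).

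**Figure D2:**
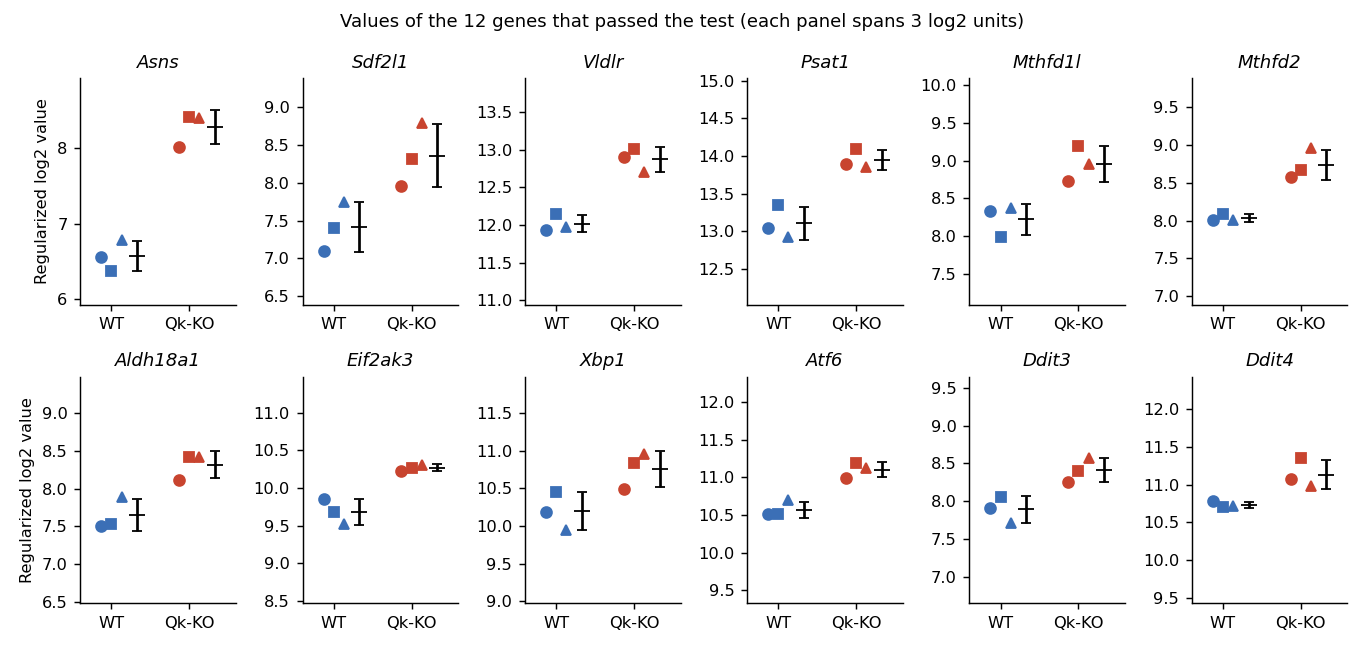
Regularized log2 values (y axis, each panel spanning the same range) of the 12 genes that rose, by group (x axis), with 1 point per library and the mean ± SD of each group in black (n = 3). Asns rises from a mean of 6.57 to 8.28, while the smallest change shown, that of Ddit4, is from 10.73 to 11.13.

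Of the 4 one-carbon enzymes Mthfd2 and Mthfd1l rose, and Shmt1 and Shmt2, which cleave serine, did not pass. Mthfd2, the mitochondrial methylenetetrahydrofolate dehydrogenase and another known ATF4 target, had values of 8.01, 8.09 and 8.01 in WT against 8.58, 8.67 and 8.96 in Qk-KO. The WT libraries lay close together and all Qk-KO libraries were above them, with a change of 0.70 ± 0.14 (SE, adjusted p = 0.00909). Mthfd1l, which releases formate from the mitochondrial pathway, was 8.33, 7.98 and 8.37 in WT against 8.73, 9.20 and 8.95 in Qk-KO, and rose by 0.74 ± 0.17 (adjusted p = 0.0159). The changes in Qk-KO replicate 1 alone were 0.55 and 0.51, with adjusted p of 0.105 and 0.181. Mthfd1l was not called without WT replicate 2 (0.051) or Qk-KO replicate 2 (0.0691). Over all alternatives the adjusted p ran from 0.000379 to 0.105 for Mthfd2 and from 0.00151 to 0.181 for Mthfd1l.

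Shmt2, the mitochondrial serine hydroxymethyltransferase that feeds Mthfd2, had values of 8.75, 8.48 and 8.75 in WT against 8.58, 8.36 and 8.5 in Qk-KO. Its groups overlapped and the change was -0.18 ± 0.14 (adjusted p = 0.352). Shmt1, the cytosolic form, was 6.13, 5.86 and 5.80 in WT against 5.59, 5.98 and 5.37 in Qk-KO, with a change of -0.28 ± 0.20 (adjusted p = 0.313). These were the members with the lowest changes, and neither passed under any alternative.

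Neighbouring enzymes and parallel eIF2 kinases were also compared within each library, in 3 pairs picked after their values were seen. Such a difference of log2 values does not depend on the scaling of the library. Psat1 stood 1.15, 1.16 and 1.05 above Phgdh in WT against 2.24, 1.98 and 1.72 above it in Qk-KO, a shift of 0.86. Mthfd2 minus Shmt2 was -0.75, -0.39 and -0.75 in WT against 0.00, 0.31 and 0.46 in Qk-KO, a shift of 0.88. Eif2ak3 stood 0.27, 0.33 and 0.15 above Eif2ak4 in WT against 0.80, 0.89 and 0.85 above it in Qk-KO, a shift of 0.60. In each pair the groups did not overlap, and the exact two-sided permutation test gave p = 0.1, the smallest value that 3 libraries against 3 allow. Each pair sets a gene that rose against a gene that did not pass, so this test adds nothing to the calls above.

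**Figure D3:**
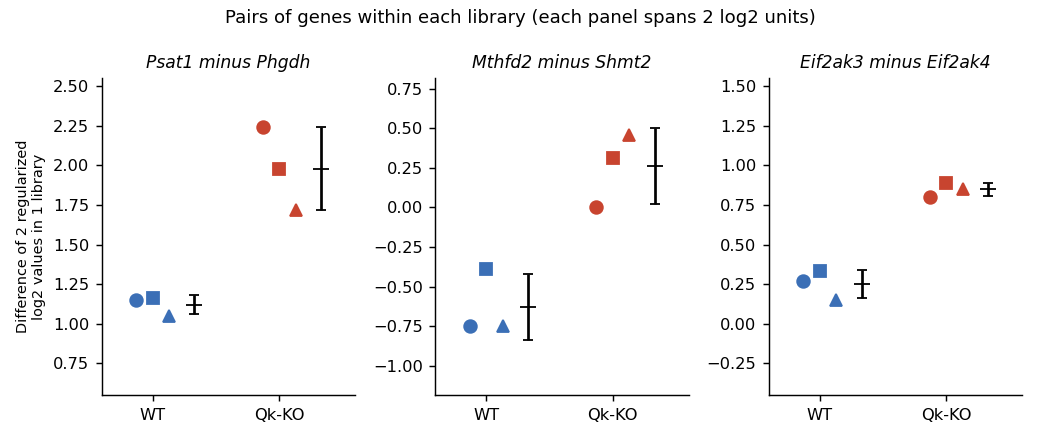
Difference between the regularized log2 values of 2 genes in the same library (y axis) by group (x axis), with 1 point per library and the mean ± SD in black (n = 3). Psat1 minus Phgdh goes from a mean of 1.12 to 1.98, Mthfd2 minus Shmt2 from -0.63 to 0.26 and Eif2ak3 minus Eif2ak4 from 0.25 to 0.85.

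Among the 7 transcription factors of the axis Ddit3 passed. Atf4, whose protein is controlled mainly in translation, had log2 values of 10.70, 10.62 and 10.69 in WT against 10.67, 11.03 and 11.26 in Qk-KO. Qk-KO replicate 1 lay within the WT range and replicates 2 and 3 above it, and the change was 0.32 ± 0.16 (SE, adjusted p = 0.159). Without Qk-KO replicate 1 it was 0.48 and passed. Ddit3, which encodes CHOP, was 7.91, 8.06 and 7.71 in WT against 8.25, 8.40 and 8.57 in Qk-KO. The groups did not overlap, and it rose by 0.51 ± 0.15 (adjusted p = 0.0398). That call is close to the threshold: the change was 0.36 in Qk-KO replicate 1 alone (adjusted p = 0.334), and the adjusted p was 0.0983 or 0.13 without WT replicate 1 or 3, and 0.118 or 0.104 without Qk-KO replicate 2 or 3. Over all alternatives it ran from 0.0221 to 0.334. Exons of Ddit3 overlap those of Mars on the opposite strand over 3.97% of their length, and whether the counting used strand is not recorded in the labels.

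The stress-inducible factors Atf3 and Cebpb were highest in a single library. Atf3, an early responder to many stresses, had values of 10.91, 10.07 and 10.80 in WT against 10.55, 10.87 and 11.91 in Qk-KO. Cebpb, a bZIP partner of ATF4, was 7.94, 7.61 and 7.83 in WT against 7.66, 7.59 and 9.04 in Qk-KO. Only Qk-KO replicate 3 stood above the WT libraries for Cebpb, and without it the change turned from 0.31 ± 0.36 to -0.17. For Atf3 the change was 0.51 ± 0.36, and 0.11 without Qk-KO replicate 3. Summed microglial markers were 4279 per 1000000 of non-ribosomal signal in that library, against 389 to 1187 in the others, and summed early genes of tissue dissociation were 3796, against 2283 to 3534; their part in these values was not tested. Exons of Cebpb overlap Tmem189 on the opposite strand over 20.7% of their length.

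Of the other factors, Atf5, which is itself translated under stress, had values of 7.37, 7.63 and 7.80 in WT against 8.09, 7.76 and 8.23 in Qk-KO, with a change of 0.43 ± 0.18 (adjusted p = 0.114); it passed with the sample number series in the model. Cebpg, the common dimer partner of ATF4, differed by -0.01 ± 0.15 and Nupr1, a small stress-induced chromatin protein, by 0.00 ± 0.20. In both genes the WT and Qk-KO values overlapped, spanning 9.32 to 9.78 for Cebpg and 6.41 to 6.97 for Nupr1.

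The downstream regulators were divided. Vldlr (chr19:27216484-27254231, plus strand), a receptor for lipoproteins and reelin that is reported as an ATF4-dependent gene, had values of 11.93, 12.14 and 11.98 in WT against 12.90, 13.01 and 12.71 in Qk-KO. The groups were well apart in all 3 Qk-KO libraries, and it rose by 0.85 ± 0.13 (SE, adjusted p = 0.00243), or 1.81-fold. It passed under all alternatives, with changes from 0.78 to 1.91 and adjusted p up to 0.0175, and changed by 0.88 in Qk-KO replicate 1 alone. Ddit4, or REDD1, which restrains the growth kinase mTORC1, was 10.78, 10.70 and 10.72 in WT against 11.07, 11.35 and 10.98 in Qk-KO, and rose by 0.40 ± 0.12 (adjusted p = 0.0448). Its call was lost in 11 of 17 alternatives, with adjusted p from 0.0276 to 0.224. These include Qk-KO replicate 1 alone (0.139) and the fits without WT replicate 1, 2 or 3 (0.101, 0.11 and 0.125) or Qk-KO replicate 2 (0.172).

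The other targets of this group did not pass or could not be tested. Sesn2, sestrin 2, a leucine sensor upstream of mTORC1, was 7.20, 7.67 and 7.68 in WT against 7.87, 7.84 and 8.02 in Qk-KO. Its groups did not overlap, but the change of 0.39 ± 0.17 had an adjusted p of 0.127. Trib3, a pseudokinase that feeds back on ATF4 and CHOP, was 4.96, 4.92 and 5.31 in WT against 4.65, 5.13 and 5.17 in Qk-KO, with a change of -0.08 ± 0.19 on about 15 to 18 reads per WT library. Chac1, which breaks down glutathione, had a mean normalized count of 10.3, below the minimum of 20, and about 4 reads in each WT library. Its values were 3.11, 3.20 and 3.12 in WT against 3.36, 3.53 and 3.51 in Qk-KO. Without the filter its change was 0.32 ± 0.10 (limma adjusted p = 0.078), while the authors' deposited table gives 1.95 ± 0.69 with an adjusted p of 0.0207.

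Of the 4 eIF2 kinase genes Eif2ak3, which encodes PERK, passed the test. It had log2 values of 9.85, 9.68 and 9.52 in WT against 10.22, 10.27 and 10.31 in Qk-KO. The Qk-KO libraries lay within 0.1 of each other and above all WT libraries, and the gene rose by 0.58 ± 0.12 (SE, adjusted p = 0.0096), or 1.5-fold. In Qk-KO replicate 1 alone the change was 0.54 (adjusted p = 0.081), and it passed without each single library, with adjusted p from 0.000729 to 0.081 over all alternatives. Eif2ak1, the haem-regulated kinase HRI, was 10, 10.25 and 9.96 in WT against 10.45, 10.40 and 10.24 in Qk-KO (0.29 ± 0.12, adjusted p = 0.108). Eif2ak4, the amino acid sensor GCN2, was 9.58, 9.35 and 9.37 in WT against 9.42, 9.38 and 9.46 in Qk-KO, which overlapped (-0.01 ± 0.12, adjusted p = 0.942). Eif2ak2, the double-stranded RNA sensor PKR, was 8.07, 7.79 and 8.26 in WT against 7.80, 8.21 and 8.18 in Qk-KO (0.02 ± 0.18, adjusted p = 0.947). On the opposite strand, exons of Eif2ak3 overlap Gm43292 over 8.05% of their length and those of Eif2ak1 overlap Aimp2 over 8.59%.

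Both subunits that direct the eIF2 phosphatase missed the threshold. Ppp1r15b, the constitutive form, was 11.67, 11.60 and 11.63 in WT against 11.89, 11.97 and 11.79 in Qk-KO. Its groups did not overlap, and its change was 0.25 ± 0.10 (adjusted p = 0.107). Ppp1r15a, or GADD34, the stress-induced form and an ATF4 target, was 10.70, 10.47 and 10.63 in WT against 10.51, 10.38 and 11 in Qk-KO (0.03 ± 0.17, adjusted p = 0.916). Like Atf3 and Cebpb it was highest in Qk-KO replicate 3.

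Of the 3 ER stress sensors and transcription factors Atf6 and Xbp1 rose and Ern1 did not pass. Atf6, the ER-anchored factor that is cleaved under stress, had values of 10.51, 10.51 and 10.70 in WT against 10.99, 11.19 and 11.12 in Qk-KO. The groups did not overlap, and it rose by 0.53 ± 0.11 (SE, adjusted p = 0.0114). Xbp1, whose mRNA is the substrate of IRE1, was 10.19, 10.45 and 9.95 in WT against 10.49, 10.83 and 10.95 in Qk-KO, and rose by 0.56 ± 0.17 (adjusted p = 0.0406), with Qk-KO replicate 1 just above the highest WT library. Ern1, which encodes IRE1, was 9.66, 9.18 and 9.07 in WT against 9.58, 9.31 and 9.45 in Qk-KO and overlapped (0.14 ± 0.17, adjusted p = 0.56). In Qk-KO replicate 1 alone Atf6 changed by 0.42 (adjusted p = 0.103) and Xbp1 by 0.30 (0.378). Atf6 was not called without WT replicate 1 (0.0511) or Qk-KO replicate 2 (0.0583), nor Xbp1 without WT replicate 1 or 3 (0.112 and 0.139) or Qk-KO replicate 2 or 3 (0.126 and 0.087). Over all alternatives the adjusted p of Atf6 ran from 0.000919 to 0.103 and that of Xbp1 from 0.0131 to 0.378.

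Of the ER stress targets, Sdf2l1, a cofactor of the ER chaperone BiP, rose, and the other 3 lay between 0.22 and 0.38. Sdf2l1 was 7.09, 7.40 and 7.75 in WT against 7.96, 8.32 and 8.80 in Qk-KO, a wide spread in both groups that did not overlap, and its change was 0.95 ± 0.25 (SE, adjusted p = 0.0251). In Qk-KO replicate 1 alone it was 0.55 (adjusted p = 0.25), and the call was lost if WT replicate 1 or 2 (0.0903 and 0.0715) or the second Qk-KO library (0.0701) was left out, with 0.00216 to 0.271 over all alternatives. Creld2, a secreted ER stress protein, was 7.87, 7.61 and 7.70 in WT against 7.77, 8.13 and 8.42 in Qk-KO (0.38 ± 0.19, adjusted p = 0.167). Without Qk-KO replicate 1 it changed by 0.55 and passed. Manf, a neurotrophic ER protein, was 9.01, 9.31 and 9.14 in WT against 9.21, 9.45 and 9.66 in Qk-KO (0.29 ± 0.15, adjusted p = 0.19). Herpud1, a component of ER-associated degradation, was 10.18, 10.26 and 9.97 in WT against 10.07, 10.46 and 10.54 in Qk-KO (0.22 ± 0.15, adjusted p = 0.31). In the latter 3 the groups overlapped through Qk-KO replicate 1, which lay within the WT range for each of them.

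Per length, the pathway's most abundant RNAs were those of Psat1 and Phgdh of serine synthesis. Back-transformed values per kilobase of annotated exon averaged 2090 for Psat1 and 1640 for Phgdh in WT, followed by Ddit4 at 969, Atf3 at 740 and Atf4 at 691. Psph, the last enzyme of serine synthesis, stood at 83.3 in WT. Asns stood at 34.9 in WT and 114 in Qk-KO, so that even after its rise it was below Psat1 at 3720 and Phgdh at 1630. The lowest levels were those of Pycr1 at 5.33, Chac1 at 5.40, Trib3 at 15.8 and Shmt1 at 15.8 in WT. Among the kinases the WT order was Eif2ak1 at 190, Eif2ak3 at 137, Eif2ak4 at 93.0 and Eif2ak2 at 52.0, and in Qk-KO Eif2ak1 at 233 and Eif2ak3 at 205 were nearer to each other. These lengths are of all annotated exons and not of the isoforms used.

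The list of 20 other ATF4 targets had 18 tested members, of which 1 rose (5.56%) and 8 fell (44.4%, against 14.8% of all genes), with a median of -0.02 and changes above 0 in 9. Of its 9 amino acid transporters 6 fell, while Slc38a2 (0.24 ± 0.16, adjusted p = 0.281), Slc1a5 (0.43 ± 0.30, 0.299) and Slc7a3 (0.04 ± 0.13, 0.865) did not pass. Slc7a11, the cystine-glutamate exchanger, was 10.23, 10.93 and 10.65 in WT against 8.43, 8.22 and 8.42 in Qk-KO, and changed by -2.25 ± 0.18 (SE, adjusted p = 0.000183). Slc1a4, which carries serine and alanine, changed by -2.12 ± 0.14 and Slc7a5, the large neutral amino acid carrier, by -1.20 ± 0.11. The glycine transporter Slc6a9 (-0.89), the cationic carrier Slc7a1 (-0.67) and Slc3a2, the partner of Slc7a5 and Slc7a11 (-0.52), changed in the same direction, as did Cth and Stc2. Bcat1, the cytosolic branched-chain aminotransferase, rose from 9.99, 9.73 and 9.34 to 10.60, 11.03 and 10.69 (1.09 ± 0.19, adjusted p = 0.00488). Asns and the 6 transporter genes that fell moved in opposite directions in the same libraries. Summed astrocyte markers in them were 7372 to 8536 per 1000000 of non-ribosomal signal in WT and 1101 to 1701 in Qk-KO.

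Of these targets, 6 fell and Bcat1 rose in Qk-KO replicate 1 alone, and without Qk-KO replicate 2 the falls were 5. Slc7a1 and Slc3a2 were not called without WT replicate 1 (0.0764 and 0.0756) or Qk-KO replicate 2 (0.0755 and 0.08), nor Slc7a1 without WT replicate 3 (0.0785), Slc3a2 without WT replicate 2 (0.0529) or Stc2 without Qk-KO replicate 2 (0.0561). Over their alternatives the adjusted p ran from 0.0023 to 0.547 for Slc7a1, 0.00349 to 0.381 for Slc3a2 and 0.000268 to 0.599 for Stc2. Scaling by library size alone, which enters the ribosomal reads and shifts the median of all genes by 1.06, ended the calls of all 8 (Slc7a11 at -1.19, adjusted p = 0.096) and gave positive changes for Slc3a2 (0.54), Slc7a1 (0.39), Stc2 (0.35) and Slc6a9 (0.17), all below that shift. All changes given here are on the authors' own scaling, in which the median gene moved by 0.03.

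The other serine, glycine and one-carbon genes went down or did not pass. Of 16 tested 0 rose and 4 fell (25%, against 14.8% of all genes; median -0.21), with 0 rises in the authors' deposited table too. Aldh1l1, a cytosolic folate enzyme that also serves as an astrocyte marker, changed by -2.13 ± 0.13, Gldc of the glycine cleavage system by -1.70 ± 0.21 and the mitochondrial serine carrier Sfxn1 by -1.12 ± 0.13. The fourth, Mthfd2l (-0.44), lost its call without any single library (adjusted p = 0.0626 to 0.125). With library size alone it changed by 0.62, below the shift of the median gene.

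The eIF2 and eIF2B subunits all had changes above 0, and 2 of 8 rose (25%, against 13.8% of all genes). Eif2s3x, the X-linked gamma subunit of eIF2, changed by 0.61 ± 0.15 (adjusted p = 0.0205) and Eif2b2 by 0.49 ± 0.13 (adjusted p = 0.0271), with a list median of 0.37; without Qk-KO replicate 1 the rises were 5. Neither passed in Qk-KO replicate 1 alone (0.0586 and 0.198) nor without WT replicate 1 (0.0646 and 0.0883) or WT replicate 3 (0.0763 and 0.0691), and Eif2b2 not without Qk-KO replicate 2 (0.0935) or 3 (0.0599). Their adjusted p ran from 0.00394 to 0.0915 and from 0.0125 to 0.198.

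Of 18 tested ER chaperone, folding and degradation genes 3 rose, or 16.7%, which is near the 13.8% of all genes, and 0 fell (median 0.25). By the authors' deposited table these counts were 5 and 0, and without Qk-KO replicate 1 limma called 6 higher and 2 lower. P4hb, protein disulfide isomerase, changed by 0.75 ± 0.16, Dnajb11 by 0.51 ± 0.14 and Edem1 by 0.44 ± 0.11, and 0 passed in Qk-KO replicate 1 alone, without WT replicate 1 or without Qk-KO replicate 2. Hspa5, which encodes BiP, was 12.13, 12.47 and 12.04 in WT against 12.50, 12.69 and 13.03 in Qk-KO (0.53 ± 0.18, adjusted p = 0.0568). Of 8 tested other ER stress transducers 2 rose and 2 fell (25% each, against 13.8% and 14.8% of all genes): Creb3, an ER-anchored relative of ATF6, by 0.90 ± 0.14 and the protease gene Mbtps1, which cleaves ATF6, by 0.41 ± 0.11, against Nfe2l1 at -1.60 ± 0.14 and Creb3l1 at -1.08 ± 0.15. Mbtps1 was not called without WT replicate 1 or 3 (0.0811 and 0.102) or Qk-KO replicate 2 or 3 (0.0945 and 0.0528), with 0.00887 to 0.132 over all alternatives.

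**Figure D4:**
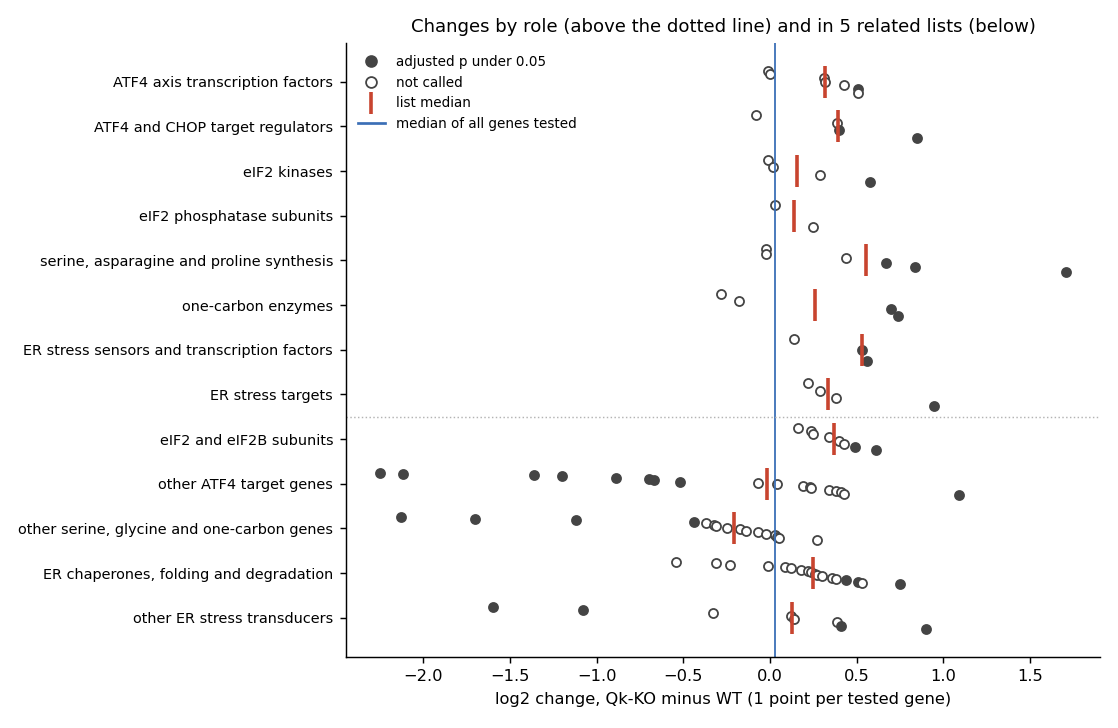
Change from WT to Qk-KO on the log2 scale (x axis), 1 point per tested gene, for the 8 roles of the pathway and 5 related lists. Filled points passed the test, red lines are list medians and the blue line is the median of all genes, 0.03. All filled points of the 8 roles lie to the right, with 0 among the eIF2 phosphatase subunits, while the other ATF4 targets reach from -2.25 to 1.09.

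Markers of astrocytes, endothelial cells, mural cells and microglia moved with the genotype in the same libraries. Among all genes tested 13.8% were called higher and 14.8% lower. Of 12 astrocyte markers 11 fell and 0 rose (median -2.68), and their summed level was 7372 to 8536 per 1000000 of non-ribosomal signal in WT and 1101 to 1701 in Qk-KO. The remaining marker, Gfap, changed by 0.81 ± 0.26 (adjusted p = 0.0526), with overlapping groups. The authors' deposited table gives 0.99 ± 0.31 for Gfap (adjusted p = 0.00873), and it also rose without Qk-KO replicate 1. All 9 endothelial markers fell (median -0.95), with sums of 1155 to 1777 in WT and 663 to 822 in Qk-KO. Of 6 mural markers 5 fell (median -0.79), or 3 if any of WT replicate 1, WT replicate 3 and the second Qk-KO library was left out. Among the markers that fell, 6 endothelial and 3 mural changes lay above 0 when scaled by library size alone, all below the shift of the median gene. Of 11 microglial markers 6 rose (median 1.75), of which 3 lost the call without WT replicate 1 and 4 without WT replicate 2 or 3, with sums of 389 to 638 in WT against 964, 1187 and 4279 in Qk-KO replicates 1, 2 and 3. No marker on these lists was at 0 in all libraries. In bulk samples fewer cells of a type and less RNA per cell cannot be told apart. Aldh1l1, Gldc, Slc7a11, Slc1a4 and Phgdh are known for expression in astrocytes, and Slc7a5, Slc3a2 and Slc7a1 in brain endothelium; the part of these cells in the values above was not tested. Of 8 neuronal markers 2 rose (25%, median 0.14), Tubb3 and Slc17a7. There were 0 rises without Qk-KO replicate 2 and 1 without any other single library except Qk-KO replicate 1. Tubb3 changed by 1.51, and by 0.38 in Qk-KO replicate 1 alone. Of 8 precursor markers 1 rose (12.5%, near the share of all genes) and 2 fell (25%, median -0.06), 1 of them without WT replicate 3. Of the 19 early genes of tissue dissociation 1 rose (5.26%) and 4 fell (21.1%), with a median of -0.19. There were 0 falls without WT replicate 1 or 3, and 1 without Qk-KO replicate 2. The rise, that of Klf6, was called in 2 of the 6 fits that each leave out a library. These lacked WT replicate 3 or Qk-KO replicate 1.

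**Figure D5:**
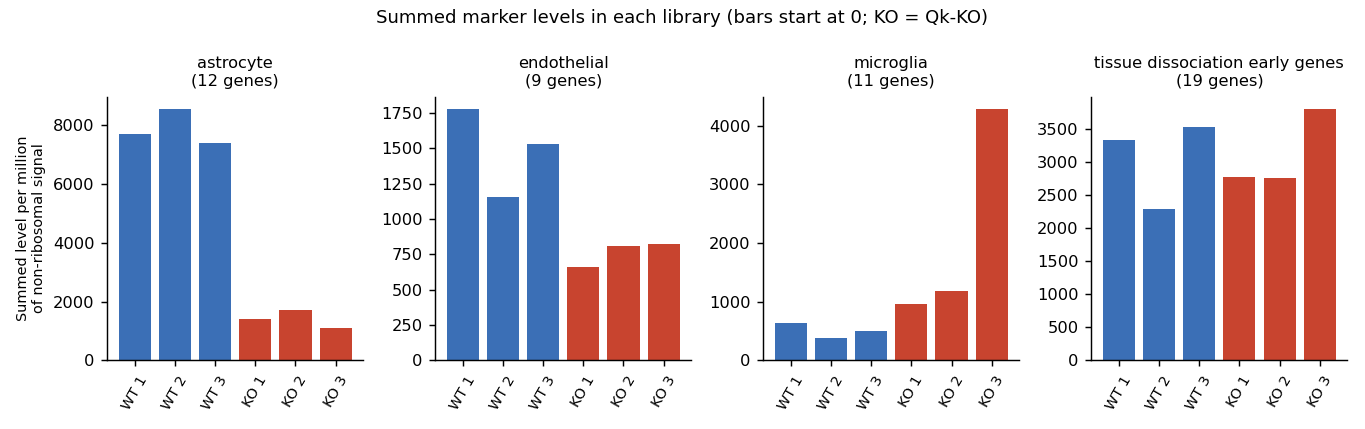
Summed level of astrocyte, endothelial, microglial and tissue dissociation genes, per 1000000 of the signal outside ribosomal features (y axes from 0, a scale for each panel), 1 bar per library (WT blue, Qk-KO red). Astrocyte bars fall from at least 7372 in WT to at most 1701 in Qk-KO, and the microglial bar of Qk-KO replicate 3 reaches 4279.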

How the data were processed

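FastQC, TopHat2 2.0.14, featureCounts and DESeq2 are the tools, and mm10 the build, that the authors list, per the submitters' processing notes. Annotation release, strandedness and read length were not found in the notes or labels. For each library the deposited table holds log2 values of the regularized kind. It also holds a mean normalized count, which is a signal that the authors averaged across libraries. The authors' comparison consists, per the file headers, of a log2 fold change with its error, a test score and p-values before and after adjustment. Columns were assigned by the sample numbers that the labels give.

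Since these are log2 values, the planned count model was replaced by its planned substitute, limma 3.58.1 in R 4.3.3 with the variance trended on the mean and genotype as the only term. Testing covered the 15153 features whose mean normalized count reached 20, Benjamini-Hochberg adjustment ran over all of them, and calls were made under 0.05. Changes are Qk-KO minus WT, ± is a standard error unless called SD, and n = 3 libraries per group. Adjusted p-values are limma's unless credited to the authors. The fit was tested on simulated data. Size factors were read from the steps of the lowest means: in all 4125 features with means of 1 or less, the mean was a sum of whole reads within 1e-06. Approximate reads are back-transformed values times the size factor. Ribosomal features are Gm42418, Gm26917, mt-Rnr1 and mt-Rnr2. Exon lengths and overlaps are from GENCODE M21, where all 35 genes were found.

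The members and gene lists were chosen with earlier results of these data known. Named genes are all members and up to 4 called genes, or the 2 most abundant, of each other list; further genes were chosen after their values were seen. Library type, sample number series, replicate block, filters, scalings, sample weights, the authors' test and leaving out each library were tried as alternatives.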

Additional observations from a re-analysis of the deposited data

How the results depend on the processing

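The 12 rises kept their direction in all 17 alternatives, and 3 of them (Asns, Psat1, Vldlr) kept the call in each. In fits on part of the libraries the direction could not have changed, since the groups of these 12 genes did not overlap. The number of members called higher was 3 with library type in the model and 3 in Qk-KO replicate 1 alone, and 5 to 14 when 1 library was left out. Without the filter on low values it was 8. Of all genes, 873 and 935 were called higher and 1385 and 1420 lower in the first 2 of these fits; leaving out 1 library gave 929 to 2840 higher and 1441 to 2793 lower. Library size alone called 65 genes lower. Fits that leave out libraries also hold fewer samples, and the causes of the differences between fits were not tested. Samples with the same replicate number in the labels deviated together only weakly (correlations of 0.104, 0.00462 and 0.0821), against -0.121 to 0.0577 for different numbers. WT replicates 1 and 3 correlated best with the Qk-KO sample of the same number, and WT replicate 2 with Qk-KO replicate 1 (0.0217). With a replicate block 10 of the 12 members passed (Ddit3 and Ddit4 did not, at 0.0634 and 0.0567), with 2091 genes higher and 2254 lower.

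Among the 22 tested members that did not pass, 14 changed sign in an alternative; the cause was not tested. In the fit with library type and in Qk-KO replicate 1 alone the changes were -0.0013 for Atf4, -0.05 for Atf3, -0.13 for Cebpb, -0.26 for Nupr1, -0.24 for Eif2ak2, -0.09 for Ppp1r15a and -0.07 for Herpud1. Library size alone, which shifts the median gene by 1.06, gave 1.05 for Cebpg, 0.98 for Trib3, 1.04 for Eif2ak4, Phgdh and Pycr1, 0.78 for Shmt1 and 0.88 for Shmt2. The total outside ribosomal features gave 0.03 for Cebpg and Eif2ak4 and 0.02 for Phgdh and Pycr1. The number series in the model gave 0.06, 0.04 and 0.19 for Cebpg, Phgdh and Pycr1, sample weights 0.01 for Cebpg and 0.05 for Phgdh, and in the authors' deposited table Cebpg stood at 0.0022. Without 1 library the changes ran from -0.17 to 0.56 for Cebpb, -0.13 to 0.10 for Cebpg, -0.14 to 0.14 for Nupr1, -0.17 to 0.08 for Trib3, -0.10 to 0.15 for Eif2ak2, -0.06 to 0.06 for Eif2ak4, -0.16 to 0.15 for Ppp1r15a, -0.11 to 0.14 for Phgdh and -0.24 to 0.19 for Pycr1. The members with the fewest reads were Pycr1, Trib3 and Chac1, with at most 18 in any WT library; whether depth limits their tests was not tested.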
